A study of Homo sapiens with 12 samples.

Results

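The H3K27me3 libraries of MKL-1, an established human Merkel cell carcinoma line, were compared between cells given EPZ011989, an inhibitor of the histone methyltransferase EZH2, and cells given the vehicle, on chromosomes 1 to 22. All 4 H3K27me3 libraries of a series of 12 were used, chosen by their antibody and treatment labels: 2 replicates with EPZ011989 at 3 µM in 1% ethanol and 2 replicates with 1% ethanol alone. Both groups were the same line with no genetic change named, were harvested on day 6 after a change of medium on day 3, and received the antibody at 1 to 100. The other 8 libraries, for H3K4me3 and for control IgG, were of the same line and treatments and served only as overlap. Replicates are duplicate treatments of 1 cell line, and every p-value measures only how these libraries vary. Fewer cells carrying the mark and less mark per cell cannot be told apart in such bulk libraries. Per library, the lists held 40186 and 43634 peaks in vehicle and 361 and 22 peaks with EPZ011989, of 84203 H3K27me3 peaks in all on these chromosomes.

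H3K27me3 is a histone mark of silenced genes. It is written by Polycomb repressive complex 2, of which EZH2 or its relative EZH1 is the catalytic subunit, and it is read by Polycomb repressive complex 1. The mark lies as short peaks at CpG-rich gene starts and as broad domains that can hold whole gene clusters, the HOX clusters of body-axis patterning being the classic case. In CUT&RUN a nuclease tethered to the bound antibody cuts out the DNA beneath it, and a peak is a stretch where more fragments were released than in the local background.

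Read counts and spike-in values were not analysed here, and the depth of each library is therefore unknown. A stand-in, the background in fragments per base solved from the most frequent fold in each list under the Poisson model of MACS2, was 1.12 and 1.63 in the vehicle libraries and 0.373 and 0.148 in EPZ011989 replicates 1 and 2. The lowest fold that was listed was 2.82 and 2.67 in vehicle and 4.37 and 4.36 with EPZ011989. The part of these differences in the results was not tested. The labelled cell type was checked against marker genes. A H3K4me3 peak in both vehicle libraries lay within 1000 bp of the promoter entry of 9 of 10 Merkel cell and neuroendocrine markers, among them ATOH1, SOX2, KRT20 and CHGA, of 1 of 6 keratinocyte markers, and of 0 of 3 fibroblast, 0 of 3 lymphoid and 0 of 2 endothelial markers. The bodies of the lymphoid genes CD3D and CD79A were covered by H3K27me3 peaks over 100% in both vehicle libraries, and that of PTPRC, also lymphoid, over 0%.

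Promoters where the mark was left, or was lost from a wide domain, are given as sequences from RefSeq (GRCh38.p14), each 250 bases before to 50 bases after an annotated start, 5′ to 3′ on the gene's strand, with CG dinucleotides in capitals. The first, COL6A2 (a collagen VI chain), is the only first-listed protein-coding promoter with H3K27me3 in both vehicle libraries and in EPZ011989 replicate 1. NRXN2-AS1, within the neurexin gene NRXN2, and HOXB-AS4, in the HOXB cluster, are lncRNA promoters in the same state. All 3 were chosen after their values were seen. ASIC2 (an acid-sensing ion channel) and CCND2-AS1 (antisense to the cyclin gene CCND2) follow from the rule for named genes, and neither promoter had a peak with EPZ011989. The windows are chr21:46097862-46098161 (+), chr11:64643599-64643898 (+), chr17:48628448-48628747 (+), chr17:33293246-33293545 (-) and chr12:4276135-4276434 (-), in that order.
COL6A2: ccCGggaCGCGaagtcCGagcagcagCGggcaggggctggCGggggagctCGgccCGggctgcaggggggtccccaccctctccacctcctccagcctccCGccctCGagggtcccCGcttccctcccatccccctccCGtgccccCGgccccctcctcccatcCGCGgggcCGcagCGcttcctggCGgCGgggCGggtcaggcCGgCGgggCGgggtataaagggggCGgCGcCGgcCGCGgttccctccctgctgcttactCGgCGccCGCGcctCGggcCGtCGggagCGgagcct
NRXN2-AS1: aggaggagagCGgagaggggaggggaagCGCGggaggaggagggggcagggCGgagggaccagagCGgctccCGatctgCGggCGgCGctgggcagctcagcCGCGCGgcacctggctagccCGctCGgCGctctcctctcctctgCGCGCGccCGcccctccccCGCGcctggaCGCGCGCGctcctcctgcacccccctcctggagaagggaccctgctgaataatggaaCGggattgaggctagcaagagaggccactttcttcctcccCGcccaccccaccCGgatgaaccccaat
HOXB-AS4: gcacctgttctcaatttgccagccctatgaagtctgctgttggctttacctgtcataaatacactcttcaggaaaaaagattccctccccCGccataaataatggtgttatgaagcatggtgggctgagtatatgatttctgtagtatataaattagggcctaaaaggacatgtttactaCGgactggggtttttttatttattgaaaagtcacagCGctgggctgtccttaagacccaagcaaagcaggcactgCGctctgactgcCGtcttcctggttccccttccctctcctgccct
ASIC2: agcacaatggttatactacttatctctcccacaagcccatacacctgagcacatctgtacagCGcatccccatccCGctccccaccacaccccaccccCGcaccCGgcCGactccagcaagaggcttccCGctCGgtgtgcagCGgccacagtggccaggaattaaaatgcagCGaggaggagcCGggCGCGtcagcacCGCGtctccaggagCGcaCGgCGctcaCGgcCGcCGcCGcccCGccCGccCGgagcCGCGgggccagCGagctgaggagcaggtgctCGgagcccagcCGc
CCND2-AS1: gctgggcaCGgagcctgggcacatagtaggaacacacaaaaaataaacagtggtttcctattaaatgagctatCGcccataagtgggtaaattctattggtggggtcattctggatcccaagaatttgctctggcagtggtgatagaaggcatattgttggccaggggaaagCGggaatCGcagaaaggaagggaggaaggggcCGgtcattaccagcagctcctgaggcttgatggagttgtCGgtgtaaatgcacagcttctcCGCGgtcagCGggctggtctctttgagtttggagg

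Each of these 5 windows was covered over all 300 bases in both vehicle libraries. EPZ011989 replicate 1 covered 170 bases at COL6A2, 177 at NRXN2-AS1 and 69 at HOXB-AS4, and 0 at ASIC2 and CCND2-AS1. EPZ011989 replicate 2 covered none of them. They ranged from CpG-rich to CpG-poor, with 36 CG dinucleotides at COL6A2, 29 at ASIC2, 28 at NRXN2-AS1, 9 at CCND2-AS1 and 5 at HOXB-AS4. The divergent lncRNA COL6A2-DT shares part of the COL6A2 window and was covered in the same libraries.

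The first comparison asked which sizes of H3K27me3 domain were left. In vehicle most of the marked length sat in wide domains, and none of those widths was left with EPZ011989. Peaks of 5 kb or more held 69.4 ± 0.624% of each list's own covered length in vehicle and 0 ± 0% with EPZ011989 (SD, n = 2 each). Peaks of 2 kb or more held 86.3 ± 0.393% and 5.32 ± 7.53%. In these shares, each taken within its own list, both EPZ011989 libraries lay below both vehicle libraries. The exact two-sided permutation p was 0.333 for both shares, the smallest that 2 libraries against 2 allow. The EPZ011989 lists were called at the lower background and higher lowest fold given above. The part of these in peak width was not tested.

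Replicate by replicate, the median peak was 1305 bp and 1381 bp wide in vehicle, 448 bp in EPZ011989 replicate 1 and 320.5 bp in replicate 2. Peaks under 1 kb held 5.92% and 5.40% of the length in vehicle, 68.5% in EPZ011989 replicate 1 and 100% in replicate 2. The widest peaks ran to 555 kb and 698 kb in vehicle, and to 4.49 kb and 0.464 kb with EPZ011989. Of the 8 EPZ011989 replicate 1 peaks of 2 kb or more, 4 lay in the HOXB domain, and without that domain their share of the length was 5.31% in place of 10.6%.

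**Figure D1:**
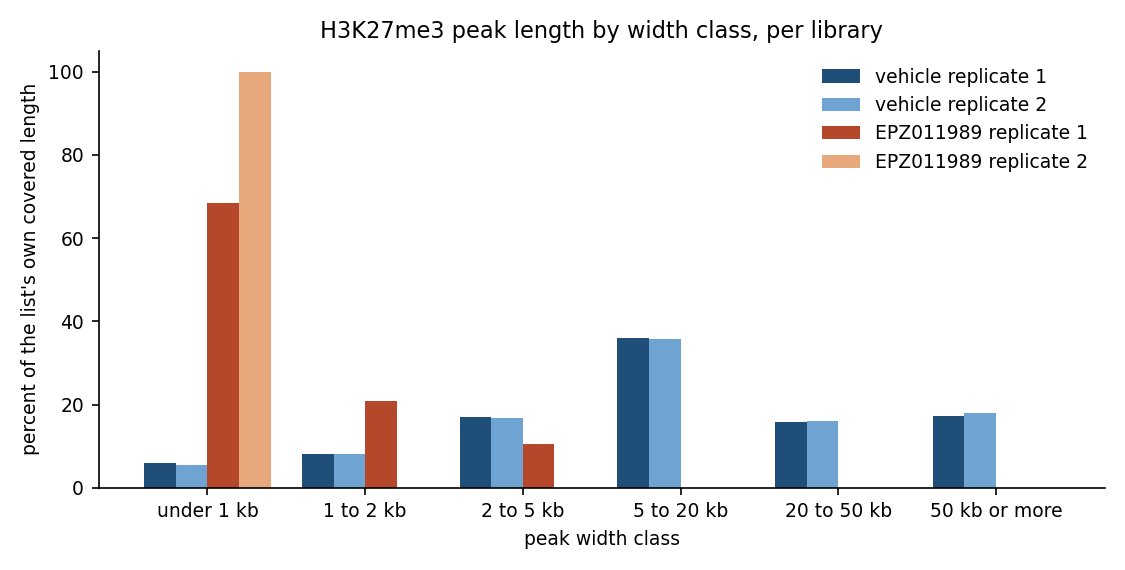
Percent of each H3K27me3 peak list's own covered length (y axis) in 6 peak width classes (x axis), 1 bar per library. Vehicle bars spread over all classes and peak at 5 to 20 kb, while EPZ011989 replicate 1 has its length under 5 kb and replicate 2 has all of it under 1 kb.

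To set the loss against what a replicate gives, the peaks of each vehicle library were looked up in the other vehicle library and in each EPZ011989 library. By 1 bp of overlap, 71.5% of the peaks of vehicle replicate 1 were found in vehicle replicate 2, and 58.9% the other way. In EPZ011989 replicate 1, 45 of 40186 and 45 of 43634 of them were found (0.112% and 0.103%), and in replicate 2, 5 and 3 of them. By length, 86.3% and 75.8% was found again in the other vehicle library, against 0.042% and 0.0375% in EPZ011989 replicate 1. Every one of these EPZ011989 values lay below both vehicle values. Calls in the EPZ011989 libraries came at the lower background given above, and its part was not tested.

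Width separated the vehicle peaks further. Between the vehicle libraries, the share of peaks found again rose with width, from 45.0% and 27% under 1 kb to 96.7% and 88.4% at 2 to 5 kb, and was 100% in both directions at 20 kb or more. In EPZ011989 replicate 1, 24 of 258 peaks of 50 kb or more of vehicle replicate 1 held a peak (9.30%, exact 95% interval 6.05% to 13.5%), and 20 of 297 of vehicle replicate 2 (6.73%, 4.16% to 10.2%). Under 1 kb the same counts were 1 of 16330 and 2 of 16736. A wider peak offers more bases to touch, and the length was therefore compared as well: 0.196% and 0.162% of the length of peaks of 50 kb or more was left, against 0.0107% and 0.00511% at 5 to 20 kb and 0.00062% and 0.00618% under 1 kb. Without the HOXB domain the values for 50 kb or more were 0.084% and 0.0674%, the highest of the 6 classes still. EPZ011989 replicate 2 held no peak in any vehicle peak of 20 kb or more. Fold within a vehicle list also went with recovery in EPZ011989 replicate 1. The highest fold decile held 33 of the 45 peaks found of vehicle replicate 1 and 31 of the 45 of vehicle replicate 2. The parts of width and fold were not tested.

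**Figure D2:**
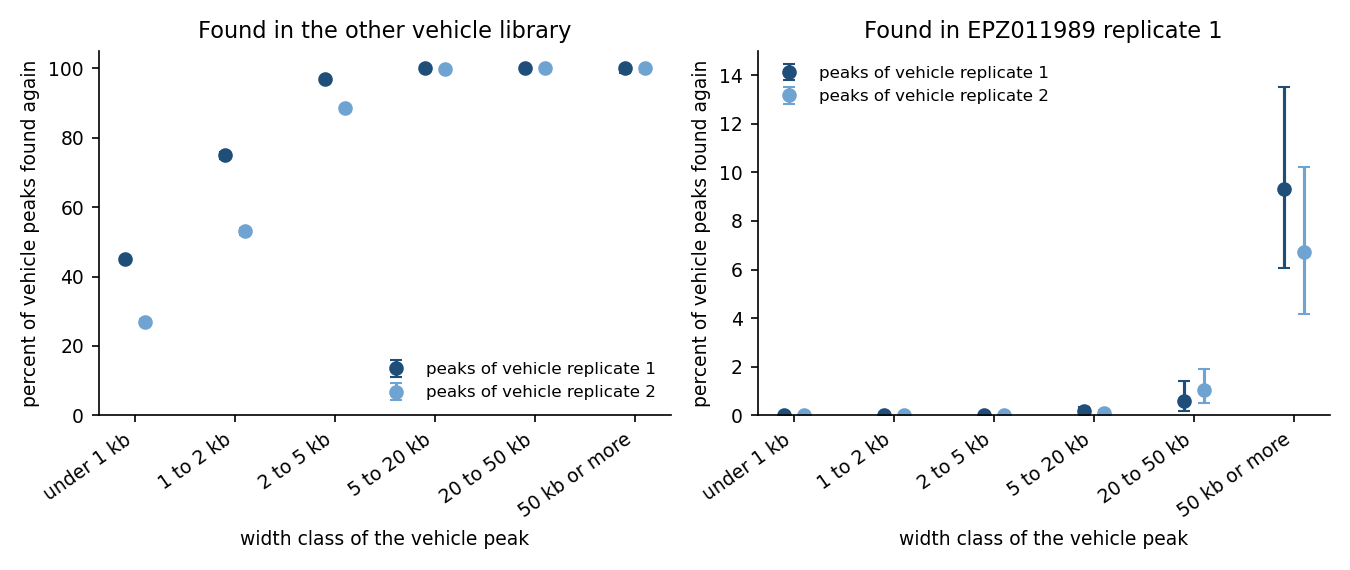
Percent of vehicle H3K27me3 peaks (y axis) that overlap a peak of the other vehicle library (left) or of EPZ011989 replicate 1 (right), by width class (x axis), with exact 95% intervals for counting error. Found shares rise to 100% between vehicle libraries, and reach 9.30% and 6.73% at 50 kb or more in EPZ011989 replicate 1.

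Regions were then merged over the vehicle libraries, and the 24016 that held sequence of both lists were followed. Of these, 44 held a peak of EPZ011989 replicate 1 and 3 held a peak of replicate 2. Replicate 1 peaks covered 1517 bp per Mb of the 326 regions of 50 kb or more, 182 at 20 to 50 kb, 68.3 at 5 to 20 kb, 21.6 at 2 to 5 kb, 185 at 1 to 2 kb and 0 of the 1761 regions under 1 kb. The value at 1 to 2 kb came from 1 region on chromosome 2, from 167290905 to 167292705, which no annotated gene touched and in which 1293 bp (71.8%) were left. Without HOXB the density at 50 kb or more was 652 bp per Mb. Of the 50 widest regions, 9 held a replicate 1 peak and 0 a replicate 2 peak. The counts of regions with a H3K4me3 peak in both libraries of a treatment also differed with width: in regions of 50 kb or more their share was 41.4% in vehicle and 49.7% with EPZ011989, and in regions of 1 to 2 kb it was 11.5% and 11.1%.

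**Figure D3:**
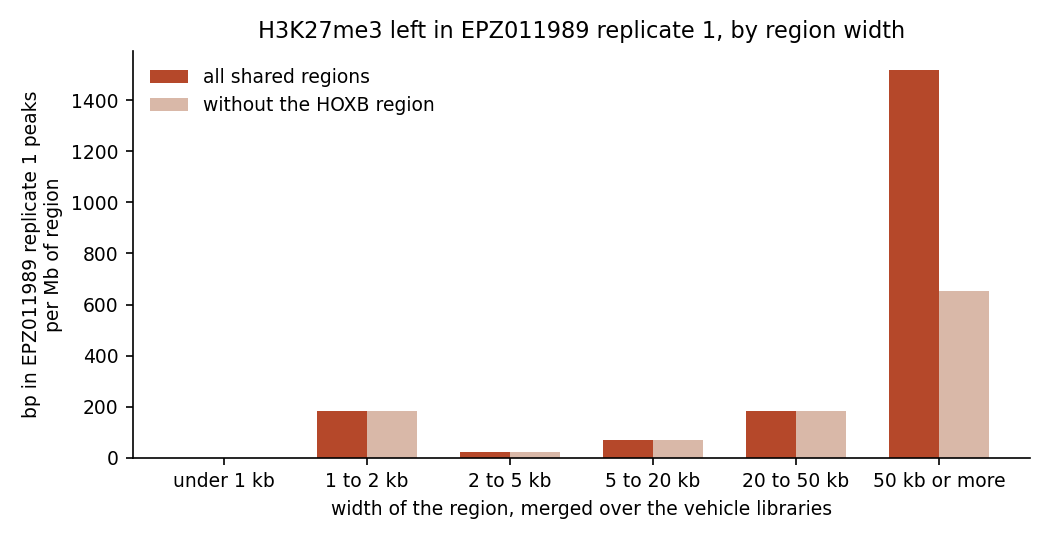
Bases in EPZ011989 replicate 1 H3K27me3 peaks per Mb of region (y axis), for regions present in both vehicle libraries, by region width (x axis), with and without the HOXB domain. The class of 50 kb or more stands highest in both, at 1517 and 652 bp per Mb.

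By limma on log2(covered bp + 100) per region of the union of all 4 libraries, 22696 of 53694 regions were lower with EPZ011989 (adjusted p under 0.05) and 0 were higher, so that 42.3% were called. At an unadjusted p under 0.05 the counts were 23089 and 0. Only 306 of the tested regions had no vehicle peak, so nearly every region entered the test through the group in which it was high, and the calls describe the loss without supporting it. The share called rose with width, from 2.66% under 1 kb through 39.3% at 1 to 2 kb and 86.9% at 2 to 5 kb to 99.6% at 5 to 20 kb, 99.2% at 20 to 50 kb and 96.0% at 50 kb or more. None of the 29363 regions found in a single vehicle library was called, and the share in both vehicle libraries rose with width as well, from 7.58% under 1 kb to 99.8% at 5 to 20 kb. Without vehicle replicate 1 or 2 the counts were 41904 and 35410, fits in which 99.2% and 99.0% of regions had no residual spread, and without EPZ011989 replicate 1 or 2 they were 19797 and 19704.

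The HOXB domain was the widest and kept the most bases. It kept 4.33% of its width, a smaller share than some narrower regions such as that at NRXN2 (5.83%) and the one on chromosome 2 (71.8%). The domain ran over chromosome 17 from 48127992 to 48826185 and was covered over 696 kb in vehicle replicate 1 and 698 kb in replicate 2. EPZ011989 replicate 1 had 23 peaks in it, 30.2 kb in all, and replicate 2 had 0. Those peaks were 13.9% of all replicate 1 length and 46.9% of what replicate 1 kept on regions of both vehicle libraries. Among the genes of the domain, SKAP1 (an adaptor of T cell adhesion) had 99.6% and 100% of its body covered in vehicle, 1.62% in EPZ011989 replicate 1 and 0% in replicate 2. HOXB9 had 100% in both vehicle libraries, 55.9% in EPZ011989 replicate 1 and 0% in replicate 2, a difference of -72.1 percentage points (SE 27.8, limma adjusted p = 0.179, not called). HOXB8 kept 48.5% in replicate 1 and 0% in replicate 2 (-75.8 points, limma adjusted p = 0.133), and the lncRNA HOXB-AS2 36.4% and 0% (-81.8 points, adjusted p = 0.074). No value of these 3 genes with EPZ011989 reached a vehicle value. Without EPZ011989 replicate 1 or 2 all 3 were called lower by limma, with adjusted p of 1.02e-15 for each without replicate 1 and of 8.95e-13 to 1.45e-11 without replicate 2, fits in which their vehicle values were identical. HOXB3 kept 15% and 0% (-92.5 points, limma adjusted p = 0.0145) and HOXB-AS1 23.4% and 0% (-88.3 points, adjusted p = 0.0315), and both calls were lost without either vehicle library (adjusted p = 0.0896 and 0.0897 for HOXB3, 0.145 and 0.145 for HOXB-AS1). When each library was scaled to its own total length, the mean difference of each of these genes turned above 0 with no call, since the short EPZ011989 lists are then multiplied.

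Across all 4 HOX clusters, whose genes encode the transcription factors of body-axis patterning, most covered members were empty with EPZ011989. Of 39 genes 31 had a peak in some library and were tested, and 25 of these were lower and 0 higher, beside 57.1% called lower among all gene bodies tested. All 9 HOXC genes were lower, 8 of 10 HOXB, 6 of 7 tested HOXD and 2 of 5 tested HOXA. Without EPZ011989 replicate 1 or 2 the counts were 6 HOXC, 10 HOXB, 6 HOXD and 1 HOXA, and without vehicle replicate 1 or 2 they were 9 HOXC, 5 HOXB and 5 HOXA, so the order of the clusters by calls was not stable. HOXC8 to HOXC13 and HOXD9 to HOXD13 went from 100% in both vehicle libraries to 0% in both EPZ011989 libraries. HOXA2 had 54.2% and 100% in vehicle and 0% with EPZ011989, and was among the 3 HOXA genes not called. All 6 HOX genes with a peak in EPZ011989 replicate 1 were in HOXB (HOXB3, HOXB4, HOXB6, HOXB7, HOXB8 and HOXB9). Scaled to each library's total, 22 of the 31 were lower and 0 higher, with a mean difference above 0 in those 6 HOXB genes. With the replicate block 18 of the 31 were lower and 0 higher. In the main fit 17 of the 31 had identical replicates within each treatment, so limma had no spread of their own to use.

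**Figure D4:**
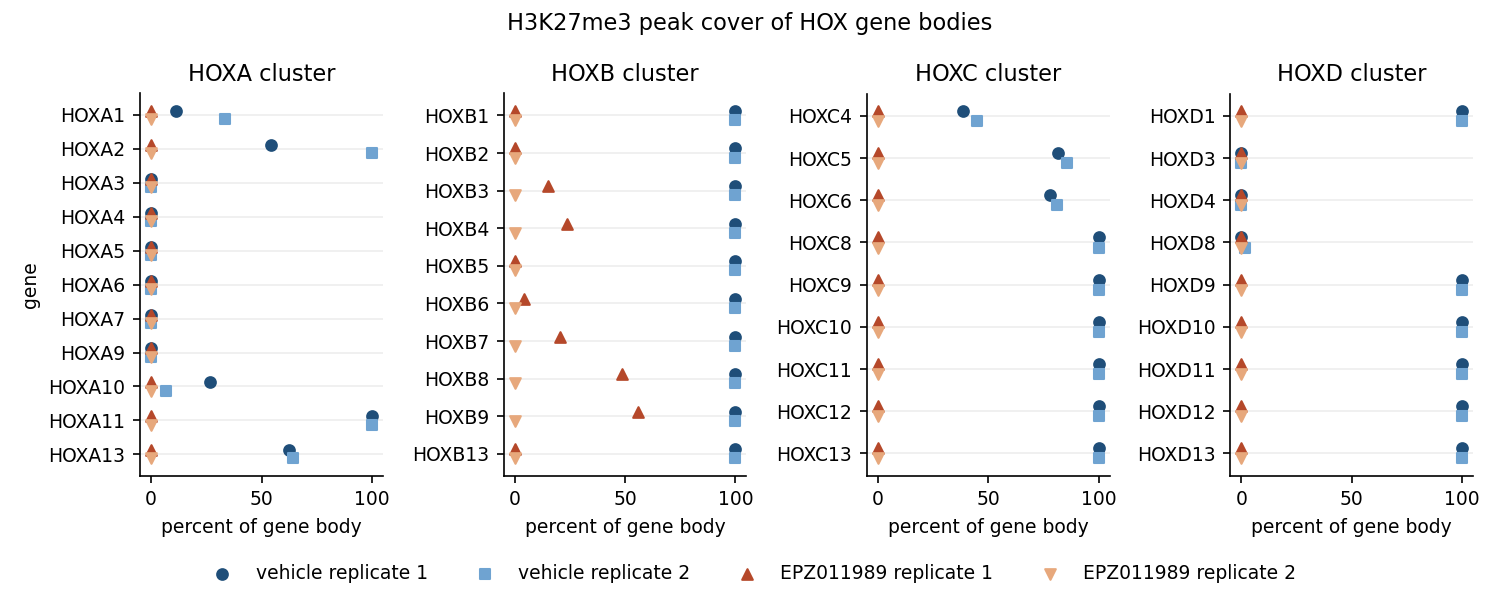
Percent of each HOX gene body covered by H3K27me3 peaks (x axis) in the 4 libraries, 1 panel per cluster. HOXC and HOXD genes with full cover in vehicle sit at 0 with EPZ011989, and 6 HOXB genes keep 4.06% to 55.9% in EPZ011989 replicate 1 only.

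Outside HOXB, each region with a peak of EPZ011989 replicate 1 held 1 or 2 of them. The 450 kb domain over CCND2, which encodes a G1 cyclin, held 2 peaks and 3160 bp, and CCND2-AS1 in it had 100% of its body covered in both vehicle libraries, 9.95% in replicate 1 and 0% in replicate 2 (-95.0 points, SE 4.95, limma adjusted p = 0.00808, and 0.0583 and 0.0584 without vehicle replicates 1 and 2). The 106 kb domain over SIM2, a transcription factor gene of neural development, held 1 peak of 1746 bp. SIM2 had 98.1% and 100% in vehicle, 3.44% in replicate 1 and 0% in replicate 2 (-97.3 points, limma adjusted p = 0.00197), with adjusted p of 0.0506 and 0.0546 without EPZ011989 replicates 1 and 2. NRXN2 had 61.2% and 70.0% in vehicle and 1.57% and 0% with EPZ011989 (-64.8 points, limma adjusted p = 0.00571, and 0.14 without EPZ011989 replicate 2). The other regions with the most bases left outside HOXB, chosen by that value, held COL1A1, a collagen gene (2132 bp), FOXC2 and FOXL1, forkhead transcription factor genes (1974 bp), ADGRE1 and VAV1, genes of blood cells (1643 bp), NOG, which encodes a BMP antagonist (1489 bp), and LHX5, a homeobox gene (1332 bp). All of them had 0 bp in replicate 2. The widest replicate 1 peak with no vehicle peak beneath it was 2992 bp wide, in AGBL4, whose body was covered over 1.98% and 2.70% in vehicle, 0.199% in replicate 1 and 0% in replicate 2. Of the 41 replicate 1 peaks of 1 kb or more, 23 lay on regions of both vehicle libraries (56.1%), against 43 of 320 narrower ones (13.4%). Without HOXB these were 11 of 29 wide peaks.

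Most peaks listed with EPZ011989 lay off the vehicle domains. Many were weak calls: 133 of 361 in replicate 1 and 14 of 22 in replicate 2 sat at the lowest fold of their list. The median −log10 q was 1.45 and 1.17 in the 2 lists, and 1.42 and 1.17 among their peaks off vehicle peaks. Whether such weak peaks carry the mark was not tested. In replicate 1, 289 of 361 touched no vehicle peak (80.1%, exact 95% interval 75.6% to 84.1%), and in replicate 2, 17 of 22 (77.3%, 54.6% to 92.2%). Per Mb, replicate 1 covered 481 bp of the sequence marked in both vehicle libraries and 56.3 bp of sequence marked in neither, a ratio of 8.54, which was 4.48 without HOXB. For replicate 2 the values were 4.94 and 2.13 bp per Mb, with 3 peaks behind the first. The EPZ011989 lists shared no peak with each other. The 22 peaks of replicate 2 lay on chromosomes 2, 6, 8 and 17 only, and 4 of them overlapped a peak of an IgG library, among them the 2 with the highest fold in that list, 49.8 in STEAP3 and 16.3 in PHF1. No replicate 1 peak overlapped an IgG peak, and the corresponding counts in vehicle were 11 and 8 peaks.

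The next comparison was of genic against intergenic sequence. Of the covered length, 54.6% and 54.5% lay inside annotated genes in vehicle, 63.5% in EPZ011989 replicate 1 and 73.0% in replicate 2, while genes took 55.9% of the annotated span. The vehicle libraries lay just below the span and both EPZ011989 libraries above it, 13.7 points above vehicle in the mean. The exact two-sided permutation p was 0.333, the smallest possible, and the difference was 8.99 points without EPZ011989 replicate 2, whose list spans 7.20 kb, and 18.4 points without replicate 1. With peaks of −log10 q of 3 or more only, the difference was 16.6 points and the exact permutation p was 1. Those lists held only 5 peaks in EPZ011989 replicate 1 and 2 in replicate 2. The 2 in replicate 2 were the peaks in STEAP3 and PHF1 that also overlapped IgG peaks, so the stricter value for replicate 2 rests on them. Protein-coding genes held 40.4% and 40.3% of the length in vehicle, and 49.2% and 60.3% with EPZ011989. In replicate 1 the genic share was 63.3% off the vehicle peaks and 55.4% on regions of both vehicle libraries other than HOXB.

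The vehicle peaks found again in EPZ011989 replicate 1 were also set out by position. Of the length of vehicle peaks that touched a coding gene, 0.061% and 0.0557% was left, against 0.012% and 0.0109% for intergenic ones and 0.0149% and 0.00648% for those at other gene types. Without HOXB the values at coding genes were 0.0282% and 0.0273%. Between vehicle libraries 90.1% and 81.5% was found again at coding genes and 76.6% and 61.2% in intergenic sequence, so the order was the same there. Peaks at coding genes were wider in vehicle, with medians of 1560 and 1612 bp against 1114 and 1191 bp in intergenic sequence, so regions were also compared within a width. Of union regions of 1 to 2 kb, 39.9% were called lower at coding genes and 38.7% in intergenic sequence, at 2 to 5 kb 87.4% and 86.1%, and at 5 to 20 kb 99.8% and 99.4%. Only regions of both vehicle libraries were called, so these shares follow how often the vehicle libraries agreed. Such regions were 40.9% and 39.7% at 1 to 2 kb, and 87.6% and 86.3% at 2 to 5 kb. Among them, 97.5% and 97.6% were called at 1 to 2 kb.

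Intergenic peaks of EPZ011989 replicate 1 stood farther from genes. Their median distance to the nearest gene was 20.7 kb (126 peaks), against 9.62 and 9.94 kb in vehicle. These 126 were weak calls, with a median fold of 4.39 where the lowest of the list was 4.37, and a median −log10 q of 1.35. Only 20 of them lay on regions of both vehicle libraries. The part of weak calls in the distance was not tested. A distance over 50 kb was found for 35 of the 126 (27.8%) and for 8.79% and 9.03% of intergenic vehicle peaks. In replicate 2 the median was 6.95 kb over 6 peaks, none beyond 50 kb, so that the EPZ011989 replicates fell on both sides of vehicle.

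By 50 kb bins, which do not depend on where peaks begin and end, limma called 11172 of 19233 bins lower (58.1%) and 0 higher, and 12221 and 0 at an unadjusted p under 0.05. Of the tested bins, 235 had no vehicle peak. Among bins that touched a coding gene 61.2% were lower, among bins with other genes only 52.4%, and among bins with no gene 47.7%. The vehicle medians ran the same way, with 6.90% and 8.63%, 4.19% and 6.02%, and 3.37% and 4.88% of the bin covered in the 2 replicates. Without vehicle replicate 1 or 2 the counts were 17427 and 16114 and without EPZ011989 replicate 1 or 2 they were 6996 and 4694.

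Gene types were compared over the bodies of 56752 annotated genes, 16891 of which had a peak in at least 1 library. By limma, 9643 of them were covered over a lower percent with EPZ011989 and 0 over a higher one (57.1% and 0% called), and 10374 and 0 passed at an unadjusted p under 0.05. Only 115 tested genes had no vehicle peak. Protein-coding genes were called lower in 5081 of 8913 cases (57.0%), lncRNAs in 3234 of 5764 (56.1%), pseudogenes in 962 of 1695 (56.8%) and small RNA genes in 329 of 445 (73.9%). The first 3 types lay within 1 point of the background. Of the 445 small RNA genes, of median length 0.082 kb, 320 had identical replicates within each treatment and so no spread of their own. Among all tested genes under 1 kb 62.1% were called. The median difference was larger for short types, at -7.14 percentage points for protein-coding genes, -19.1 for lncRNAs, -58.4 for pseudogenes and -100 for small RNA genes, and it followed gene length in all genes as well, from -100 points under 1 kb to -1.92 points at 100 kb or more. Without EPZ011989 replicate 1 or 2, 2949 and 2948 genes were lower, with 0 and 1 higher, and without vehicle replicate 1 or 2, 15355 and 13834 were, in fits where 98.2% and 98.0% of genes had no residual spread.

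Loss was near complete in each type. Of genes with a peak in both vehicle libraries, 98.6% of 6732 protein-coding genes, 99.1% of 4291 lncRNAs and 100% of 1151 pseudogenes had none in either EPZ011989 library. Among protein-coding genes of 100 kb or more it was 96.1% of 1574 and among those of 1 to 10 kb 99.3% of 1501. Pseudogenes were touched by 3.6% and 3.63% of vehicle peaks, by 3 of 361 EPZ011989 replicate 1 peaks (0.831%, exact 95% interval 0.172% to 2.41%) and by 0 of 22 in replicate 2, for which the exact interval reaches 15.4%.

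Genes named for the most vehicle cover show the same emptying from type to type. Some genes named for a peak with EPZ011989 went the other way in 1 replicate and were not called. SYNJ1 had 0% and 0.267% in vehicle, and 1.67% and 0% in EPZ011989 replicates 1 and 2. TSEN54 had 0% in both vehicle libraries, and 0% and 4.45% with EPZ011989. PRDM16, a regulator of brown fat, on chromosome 1 from 3069203 to 3438621, had 98.4% and 98.8% of its body covered in vehicle and 0% in both EPZ011989 libraries (-98.6 points, SE 0.171, limma adjusted p = 1.62e-05). RBFOX3, which encodes the neuronal splicing factor NeuN, had 74.3% and 80.4% and then 0% and 0% (-77.3 points, SE 2.98, limma adjusted p = 0.005). ZFHX3, a homeobox transcription factor gene, had 30.8% and 34.7%, and ASIC2 29.1% and 34.9%, both with 0% in the EPZ011989 libraries (limma adjusted p = 0.00525 and 0.0083). The calls of these last 3 were lost without either EPZ011989 replicate, at adjusted p of 0.166 to 0.189, although the values stayed at 0.

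Among lncRNAs, LINC01411 on chromosome 5 had 98.1% and 98.3% in vehicle, TSBP1-AS1 on chromosome 6 had 96.6% and 97.9%, and LOC105370003 on chromosome 12 had 74.9% and 75.9%. All 3 were at 0% in both EPZ011989 libraries (limma adjusted p = 4.85e-06, 0.000239 and 0.000117). Among pseudogenes, ADGRE4P on chromosome 19 went from 100% in both vehicle libraries to 0% in both EPZ011989 libraries, and LOC102723999 on chromosome 16 from 93.9% and 94.9% to 0% (limma adjusted p = 0.000141). Protein-coding genes with full cover in vehicle and none left included ACHE (acetylcholinesterase), ADCYAP1 (the neuropeptide PACAP), ADRA1D (an adrenergic receptor), AHSG (the plasma protein fetuin-A) and ALOX12B (a lipoxygenase of the skin barrier). Their replicates were identical, as in 15.6% of tested genes, so limma had no spread of their own to use and their SE comes from the shared estimate alone.

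Genes of the Polycomb system, other gene families and the marker lists were counted in the same fit, beside 57.1% called lower among all gene bodies tested. In Polycomb repressive complex 2, 4 of 11 listed genes had a peak and 2 were lower: EPOP, an accessory subunit, with 97.6% and 100% in vehicle and 0% with EPZ011989, and EZH1 with 1.24% and 1.34% and then 0%. In Polycomb repressive complex 1, 11 of 18 had a peak and 3 were lower, among them BMI1, a core RING-finger subunit, with 39.5% and 40.02% and then 0%. Without EPZ011989 replicate 1 or 2 no gene of either complex was called by limma, with adjusted p of 0.0623 and 0.0647 for EPOP and of 0.182 and 0.173 for BMI1. Without vehicle replicate 1 or 2, in fits with almost no spread, 11 and 9 genes of Polycomb repressive complex 1 and 3 and 2 of Polycomb repressive complex 2 were. CBX8, which encodes a chromodomain reader of the mark, had 25.7% and 100% in vehicle and 0% with EPZ011989 and was not called (limma adjusted p = 0.219). It was called without either vehicle replicate, where it had no spread left, with 2500 bp added on each side of the body (adjusted p = 0.0471) and on the log2(covered bp + 100) scale (adjusted p = 0.0379). Of 204 tested ZNF genes 89 were lower, with a median difference of -3.30 points, and of 88 tested olfactory receptor genes 48 were, with a median of -36.2 points, beside -14.7 points over all genes tested. Without EPZ011989 replicate 1 or 2, 7 ZNF and 16 olfactory receptor genes were lower, and without vehicle replicate 1 or 2, 177 and 164 ZNF and 80 and 79 olfactory receptor genes. Of the 2 housekeeping genes with a peak 0 were lower. By marker list, 0 of 2 tested Merkel cell and neuroendocrine genes were lower, 2 of 6 keratinocyte, 4 of 4 fibroblast, 3 of 5 lymphoid and 2 of 3 endothelial genes. Without EPZ011989 replicate 1 or 2 these were 0 Merkel cell, 0 keratinocyte, 1 fibroblast, 2 lymphoid and 0 endothelial genes. Without vehicle replicate 1 there were 1 Merkel cell, 5 keratinocyte and 4 lymphoid genes, and without vehicle replicate 2 there were 5 lymphoid genes.

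Promoter entries were read with the first-listed start of each gene. H3K27me3 lay in both vehicle libraries at 3628 of 15100 protein-coding promoters (24.0%) and 1689 of 11145 lncRNA promoters (15.2%). With EPZ011989, replicate 1 had a peak at 4 of each and replicate 2 at 0. Protein-coding promoters marked in both vehicle libraries held a median of 24 CG dinucleotides per 300 bases (quartiles 13 and 33), against 21 (6 and 31) at those marked in neither. By the width of the vehicle region the median was 25 up to 20 kb, 22 at 20 to 50 kb and 15 at 50 kb or more, and the share with H3K4me3 in both vehicle libraries ran from 97.6% under 1 kb to 27.8% at 50 kb or more. In these first-listed promoters, the widest domains had the lowest CG counts and the lowest H3K4me3 share of the 6 width classes. At COL6A2 no H3K4me3 peak lay within 1000 bp in vehicle, and 892 and 634 bp of H3K4me3 peaks did in EPZ011989 replicates 1 and 2. Of 1251 protein-coding promoters with H3K27me3 in both vehicle libraries but not H3K4me3 in both, 207 (16.5%) had H3K4me3 in both EPZ011989 libraries. That group was chosen for its vehicle H3K4me3 state, so its count could only rise, and it can include promoters with H3K4me3 in 1 vehicle library. Without that choice, H3K4me3 lay in both libraries at 65.5% in vehicle and 70.9% with EPZ011989 of promoters with H3K27me3 in both vehicle libraries. At promoters with H3K27me3 in neither, the shares were 62.3% and 62.2%.

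The last comparison was by chromosome. H3K27me3 length per Mb of annotated span was highest in vehicle on chromosome 19, at 286 ± 14.6 kb per Mb, then on 17, at 138 ± 14.0, and on 20, at 113 ± 12.0 (SD, n = 2). It was lowest on 4, at 19.5 ± 1.34, on 18, at 30.2 ± 3.15, and on 13, at 30.9 ± 2.29, of which the last 2 did not differ beyond their spread. Over the 22 chromosomes the vehicle value went with coding genes per Mb (Pearson r = 0.965), and the vehicle replicates gave each chromosome nearly the same share of their length (r = 0.998). These correlations are descriptions, as the points share their libraries and gene table. In EPZ011989 replicate 1 the correlation of bp per Mb with coding genes per Mb was 0.319.

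As a share of each list, chromosome 19 held 10.6% and 10.0% of the length in the vehicle libraries and 2.09% in EPZ011989 replicate 1, with 4 of 361 peaks, and 0% in replicate 2. Per Mb of span it held 77.3 bp in replicate 1, the fifth highest value of the 22 chromosomes, against 515 on chromosome 17 and 267 on chromosome 21. Chromosome 17 held 7% and 7.10% in vehicle, 19.8% in replicate 1 and 36.9% in replicate 2 (8 of 22 peaks). With the HOXB region taken out of every library it held 6.57% and 6.72% in vehicle and 6.79% in replicate 1. Replicate 2, which had no peak in that region, held 36.9% either way. Chromosome 21 had 1.79% and 1.78% in vehicle and 5.76% in replicate 1 (18 peaks, 3 of them on regions of both vehicle libraries), and chromosome 4 2.32% and 2.25% and then 4.71% (23 peaks, 1 of them on such a region). Neither had a peak in replicate 2. The number of replicate 1 peaks off those regions followed the chromosome's span (r = 0.736, n = 22 chromosomes). Bins were called lower most often on chromosome 19 (75.1%), 20 (67.7%) and 16 (64.1%) and least often on 4 (50.7%), where the vehicle bins also held less.

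**Figure D5:**
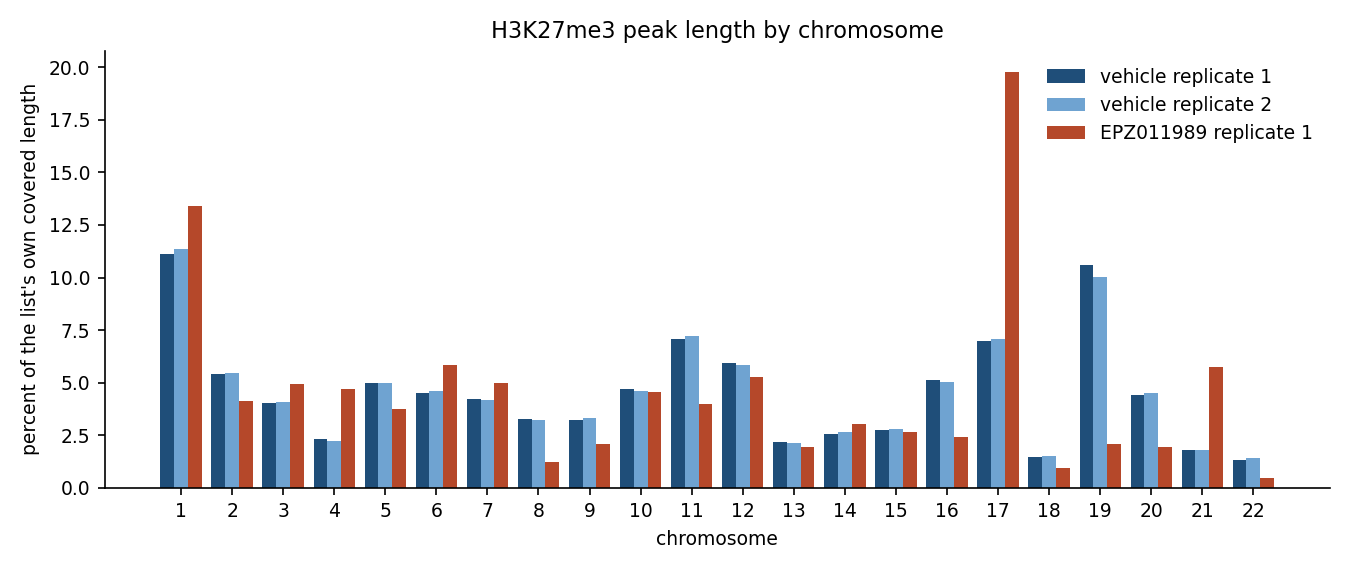
Percent of each list's own covered H3K27me3 length (y axis) on each chromosome (x axis) for both vehicle libraries and EPZ011989 replicate 1. The vehicle bars lie close together, and replicate 1 lies below them on chromosome 19 (2.09%) and above them on 17 (19.8%, with HOXB) and 21 (5.76%). EPZ011989 replicate 2, with 22 peaks on 4 chromosomes, is not drawn.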

How the data were processed

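MKL-1 chromatin was profiled by CUT&RUN, and the 4 H3K27me3 lists of broad peaks were analysed on chromosomes 1 to 22 of hg38. Per the submitters' processing notes, the tools named are MACS2 2.1.1.20160309, Bowtie2 2.2.9, SAMtools 0.1.19 and FastQC. The authors deposited for each peak a score, a fold enrichment ratio over the local background, a −log10 p and a −log10 q. These are the authors' own values, and a fold was compared only within a list. Read counts and spike-in values were not analysed here, so depth is unknown beyond the stand-in described.

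Overlaps were counted from 1 bp. Covered percent of gene bodies and of 50 kb bins, and log2(covered bp + 100) of regions merged over the 4 libraries, were fitted with limma 3.58.1 (trend and robust, R 4.3.3) where at least 1 library had a peak, and p-values were adjusted by Benjamini-Hochberg and called below 0.05. Nearly all features entered through vehicle, so counts of calls are descriptions. Single values were compared by two-sided exact permutation tests. Intervals are exact Clopper-Pearson 95% intervals and cover counting error only. The limma step was also run on simulated data that gave all 4 libraries the vehicle spread. That setting differs from these data, where nearly all features were empty with EPZ011989, so it does not bear on the calls.

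Genes came from RefSeq (GRCh38.p14, 56752 genes, without strand). The first-listed promoter entry of each of 26246 genes was used. Named genes were those with the most covered bases in vehicle by gene type, those with the most in each EPZ011989 library, the fully covered genes with the smallest p, and list examples. The members and lists were chosen with earlier results of these data known. Alternatives were each library left out, a replicate block, stricter peaks (−log10 q of 3 or more, from the deposited values), other filters, bins, scalings and overlaps.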

Additional observations from a re-analysis of the deposited data

How the results depend on the processing

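No setting called more than 1 gene body higher, and no region or bin was called higher under any. With single libraries left out, gene bodies called lower ranged from 2948 to 15355 and those called higher from 0 to 1, union regions called lower from 19704 to 41904, and bins from 4694 to 17427. Whether the replicate numbers pair the libraries could not be judged. The correlation of replicate differences between treatments was 0.0321 over bins and 0.00653 over gene bodies. EPZ011989 replicates 1 and 2 had a peak in only 354 and 22 of 19233 bins, so their difference was 0 in nearly every bin. With the replicate block 3187 gene bodies, 22068 regions and 11093 bins were lower. Stricter peaks gave 7475 regions and 6491 bins, with 12966 and 10165 tested, and bins of 10 kb and 200 kb gave 23592 and 6057. The mean share of vehicle peaks found in the other vehicle library was 52.1% when at least 50% of a peak had to be overlapped and 76.7% with stricter peaks. In EPZ011989 replicate 1 these were 0.00468% and 0.00922%, and in replicate 2 0.00249% and 0.00501%. The stricter lists of EPZ011989 replicates 1 and 2 held only 5 and 2 peaks, and the 2 of replicate 2 overlapped IgG peaks. Without the HOXB region, chosen after seeing the data, the chromosome 17 share of EPZ011989 replicate 1 was 6.79%. In vehicle, treated alike, it was 6.57% and 6.72%, and in EPZ011989 replicate 2 it stayed at 36.9%. In EPZ011989 replicate 1, 43 peaks then lay on regions of both vehicle libraries, and the density ratio was 4.48. Scaled to each library's total, the mean difference turned above 0, with no call, for SKAP1 (507 points), HOXB3 (5517), HOXB8 (18098), HOXB9 (20883), HOXB-AS1 (8696), HOXB-AS2 (13571), CCND2-AS1 (3638), SIM2 (1191) and NRXN2 (524). A gene body fit with no filter could not be fitted, as 74.9% of genes had no spread. The lower background of the EPZ011989 libraries limits what their lists can show.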
